A study of Mus musculus with 12 samples.

Results

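Prostate tissue from mice that carry an ERG transgene and lack Trp53 in the prostate was compared with prostate tissue from wild-type (WT) littermates by RNA-seq, taking the 6 libraries labelled 'Pb-ERG, Trp53pc-/-' or WT out of 12 in all. All mice were C57BL/6 and 15 months old. In the 3 Pb-ERG, Trp53pc-/- mice, called double mutant mice here, the probasin promoter (Pb) drove both the TMPRSS2-ERG transgene and the Cre4 recombinase that deletes the floxed Trp53 alleles, so both lesions were placed in prostate epithelial cells and not by design in stroma or immune cells. The 3 WT mice carried neither, and the other 6 libraries, 3 labelled Pb-ERG and 3 labelled Trp53pc-/-, entered the same fit. RNA came from whole tissue, so in every result below fewer cells of a type and less RNA per cell cannot be told apart.

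ERG is an ETS family transcription factor that prostate cells do not normally use at a high level and that gene fusion places under the androgen-driven TMPRSS2 promoter in many human prostate cancers. The product of Trp53, p53, halts the cell cycle or triggers cell death after damage. The normal mouse prostate is a gland of secretory luminal cells, basal cells and a sheath of smooth muscle, and a few proteins made for the seminal fluid take a large share of its mRNA.

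That share decides how the libraries can be scaled. Together, 17 genes, each above 1% of the fragments of at least 1 library, made up 27.6% to 30.1% of the 3 WT libraries, and 11.6%, 14.0% and 3.04% of those of double mutant mice 1, 2 and 3. FPKM (fragments scaled for exon length and library size) as deposited are divided by the library total, which includes these genes. Here each library was divided again by its median ratio to the other libraries, and these values are called scaled FPKM. Libraries held 19747635 to 32565774 fragments. Double mutant mouse 3 stood apart. Its root mean square difference over all tested genes was 0.896 and 0.959 on the log2 scale from the other double mutant mice, which differed from each other by 0.468, while pairs of WT mice differed by 0.374 to 0.444. Results are therefore given mouse by mouse.

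The engineered genes were read first. Erg lies on the minus strand of chromosome 16 (95359169 to 95586593, GRCm38). It had 0.589, 1.08 and 0.548 scaled FPKM in WT and 7.0, 8.71 and 20.9 in the double mutant mice, with a log2 fold change (SE) of 2.79 (0.354) and a limma adjusted p = 0.00313. Every double mutant library lay above every WT library. Reads were aligned to the mouse genome, so this value cannot separate transgene fragments from those of the gene on chromosome 16. The transgene status, too, rests on the labels. Trp53 had 12.5, 10.4 and 10.8 scaled FPKM in WT and 14.2, 10 and 16.6 in the double mutant mice, and the groups overlapped. A value for the whole gene does not check a deletion of some exons in some cells, so the Trp53 status rests on the labels.

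On the scale log2(scaled FPKM + 1), which understates the change of low genes, 17623 genes were tested with limma. At an adjusted p under 0.05, 1502 genes (8.52% of those tested) were higher and 971 (5.51%) lower in double mutant than in WT mice, so 60.7% of the calls were higher. With FPKM as deposited the same test gave 3880 higher and 247 lower genes, 94.0% of them higher, and scaling without the 17 dominant genes gave 1715 and 651, 72.5% of them higher. Of the calls, 1499 of the 1502 and 970 of the 971 had no overlap between the 3 double mutant and the 3 WT libraries. Among all tested genes 22.1% lay above and 18.6% below without overlap. The counts moved when 1 mouse was left out, to 524 higher and 270 lower without WT mouse 1, 571 and 317 without WT mouse 2, 424 and 193 without WT mouse 3, 879 and 543 without double mutant mouse 1, 1191 and 544 without double mutant mouse 3, and 2002 and 1078 without double mutant mouse 2. In all 7 fits, with all mice or with any 1 of these 6 left out, 380 genes were called higher and 152 lower. These are called stable calls below, and their number is given for each list that holds any.

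**Figure D1:**
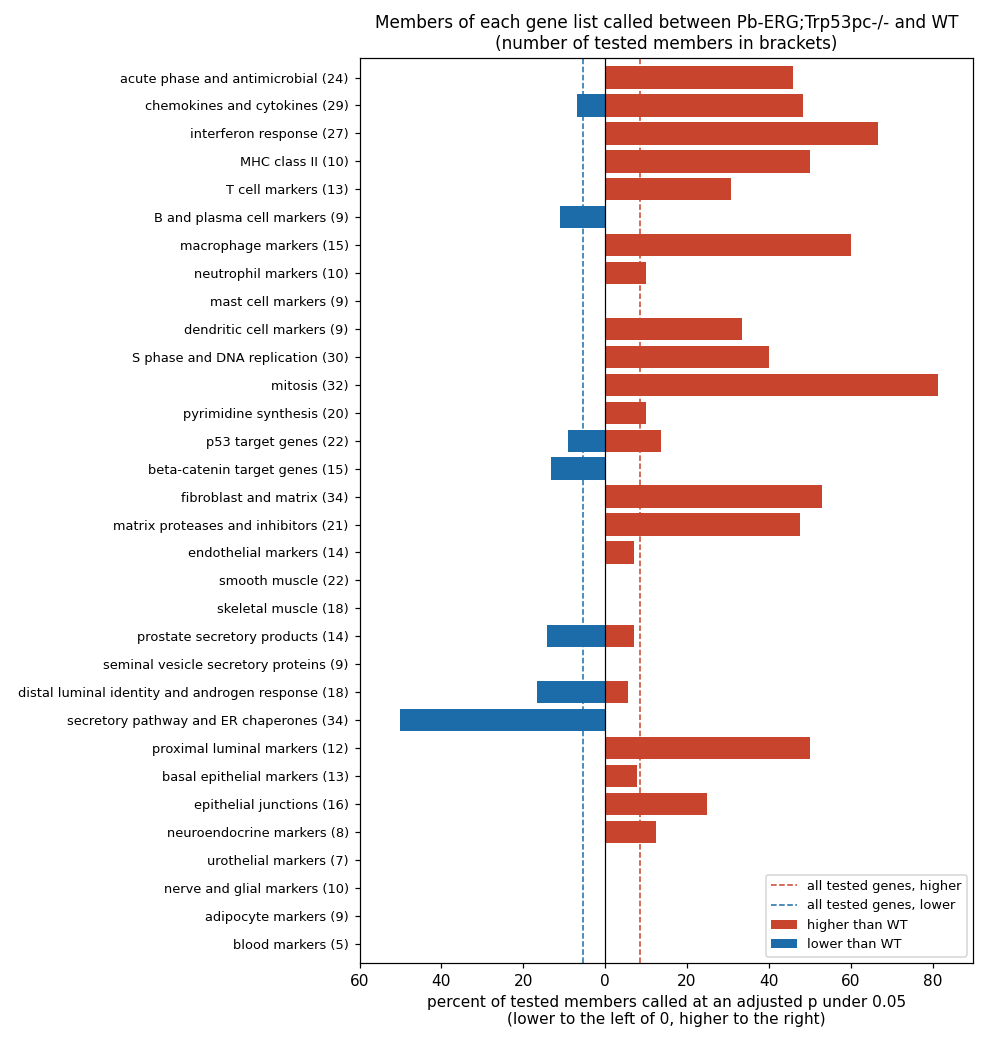
Percentage of the tested members of each gene list that limma called at an adjusted p under 0.05, lower in double mutant than in WT mice to the left of 0 and higher to the right, with the numbers tested in brackets. Dashed lines mark all tested genes (5.51% lower, 8.52% higher), and the mitosis and interferon lists reach farthest to the right and the secretory pathway list farthest to the left.

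The largest rises were in secreted antimicrobial and acute phase proteins, and they held in all 3 double mutant mice. Reg3b (chromosome 6), a bactericidal lectin of mucosal surfaces, had 0.112, 0.0748 and 0.0582 scaled FPKM in WT, which is at most 3 fragments, and 516, 164 and 295 in the double mutant mice. It was at least 1720-fold higher, measured against a floor of 3 fragments in each WT library. Its paralog Reg3g had 0.497, 1.40 and 1.37 scaled FPKM in WT and 447, 172 and 1410 in the double mutant mice, with some uncertainty about which paralog a fragment belongs to. Lcn2, lipocalin 2, which withholds iron from bacteria, had 16.4, 8.93 and 24.7 scaled FPKM in WT and 1176, 744 and 542 in double mutant mice, with a log2 fold change (SE) of 5.57 (0.486) and a limma adjusted p = 0.000567. The lowest double mutant mouse lay far above the highest WT mouse for each of these genes. The largest rises were taken from called genes without overlap between the groups, so this separation is no separate result.

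Other genes of this kind moved with them. Saa3, an acute phase apolipoprotein, had 0.801, 0.855 and 0.665 scaled FPKM in WT and 246, 35.2 and 72.6 in the double mutant mice. Wfdc18 was at least 440-fold higher by the same floor, and Wfdc2 (HE4), another whey acidic protein family member, went from 10.4, 7.02 and 5.41 to 253, 417 and 1268 scaled FPKM. Ltf, the iron-binding milk protein lactoferrin, had 0.915, 0.0414 and 1.95 scaled FPKM in WT and 142, 15.8 and 35.5 in double mutant mice. Of 24 tested members of the acute phase and antimicrobial list, 11 rose and 0 fell, with a median log2 fold change of 2.12 against 0.04 for all tested genes. Members above every WT mouse numbered 20, 15 and 16 in double mutant mice 1, 2 and 3, beside 40.5%, 35.3% and 42.5% of all tested genes. Leaving out 1 mouse gave 8 to 14 rises, and 8 were stable calls. Saa1, which the liver makes in large amounts, was an exception, at 3.09, 4.60 and 15.6 scaled FPKM in WT and 75.5, 12.6 and 1.10 in double mutant mice.

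**Figure D2:**
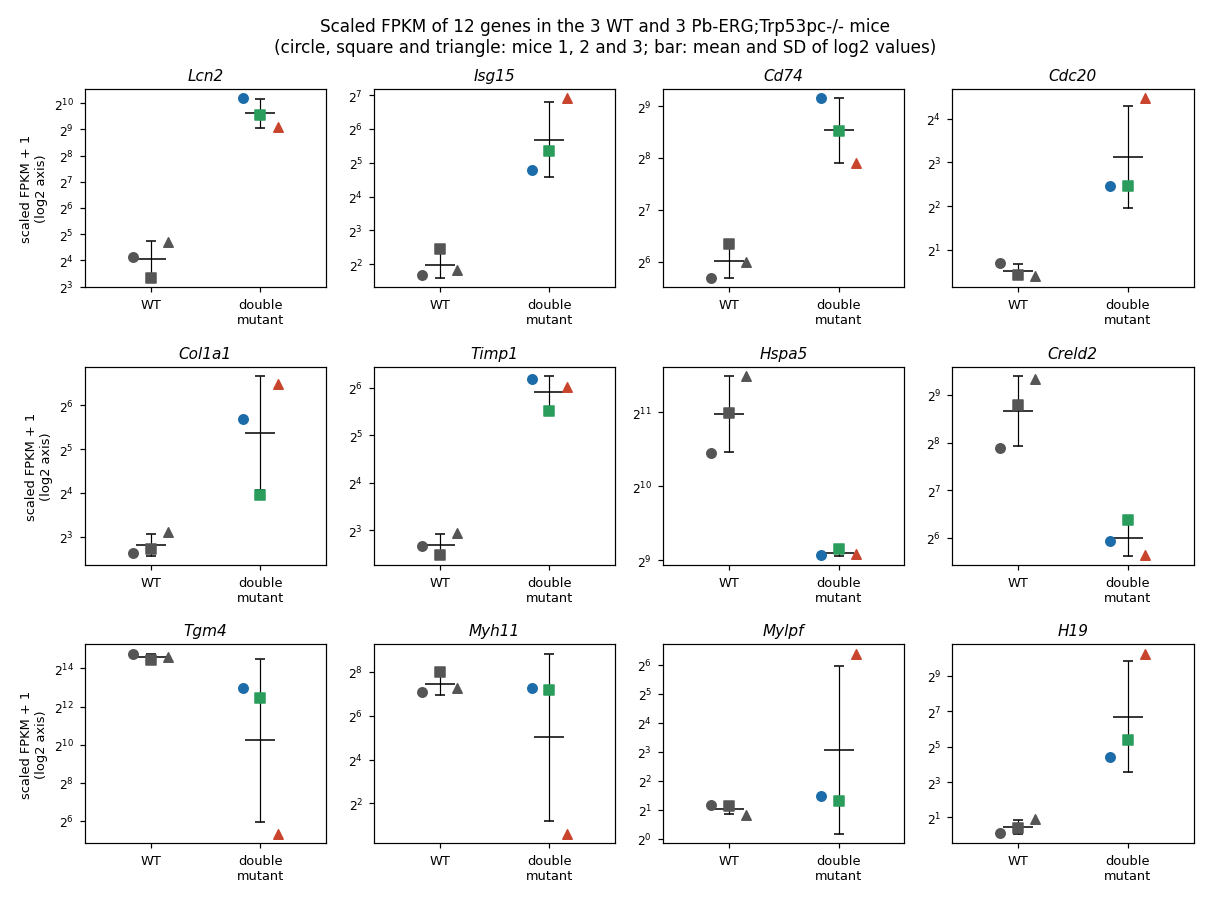
Scaled FPKM + 1 on a log2 axis for 12 genes in the 3 WT mice (grey) and the 3 double mutant mice (colours), with circle, square and triangle for mice 1, 2 and 3 and bars for the mean and SD of the log2 values. Lcn2, Isg15, Cd74, Cdc20, Col1a1 and Timp1 are higher and Hspa5 and Creld2 lower in each double mutant mouse, whereas Myh11 is low and Mylpf is high in mouse 3 (red triangle).

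Signals that draw and activate immune cells rose as well. Of 29 tested chemokines and cytokines 14 rose and 2 fell, beside 8.52% and 5.51% of all tested genes, with a median log2 fold change of 1.29. Cxcl16, a ligand that draws T cells, had 3.17, 4.86 and 4.48 scaled FPKM in WT and 40.8, 33.6 and 22.0 in double mutant mice, with a log2 fold change (SE) of 2.65 (0.241) and a limma adjusted p = 0.000685. Tgfb1, which restrains immune cells and stimulates matrix production, had 2.68, 2.03 and 2.33 against 9.79, 10.5 and 19.7. Il1b and the neutrophil-attracting Cxcl1 and Cxcl2 also rose, from low levels. Il1b had 0.0627, 0.0418 and 0.456 scaled FPKM in WT and 5.87, 1.40 and 7.01 in double mutant mice. The falls were Ccl11, a chemokine for eosinophils, at 16.7, 28.8 and 15.2 against 9.26, 6.43 and 2.47, and Il18, at 17.3, 32.3 and 17.9 against 4.69, 2.59 and 4.15. Neither gene overlapped between the groups, but 0 or 1 fall was called with 1 mouse left out. Rises numbered 3 to 13 with 1 mouse left out, fewest without WT mouse 3, and the stable calls were Cxcl16, Ccl12 and Tgfb1.

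Interferon-stimulated genes formed the second group of rises, with 18 of 27 tested members called higher, 0 lower and a median log2 fold change of 1.68. These genes answer type I and type II interferons, and many carry an interferon-stimulated response element (ISRE) near their start. Isg15, a ubiquitin-like modifier, had 2.19, 4.43 and 2.57 scaled FPKM in WT and 26.6, 39.7 and 120 in double mutant mice (log2 change 3.70, SE 0.582, limma adjusted p = 0.0066). Irf7, a transcription factor that amplifies the response, had 3.0, 3.03 and 3.43 against 20.3, 36.9 and 35.0. Ddx58 (RIG-I, a sensor of viral RNA), Usp18 and Oas3 rose too. Usp18, which removes Isg15 from proteins, had 1.49, 1.76 and 4.21 against 12.2, 23.7 and 26.6. Members above every WT mouse numbered 24, 25 and 23 in mice 1, 2 and 3, beside 40.5%, 35.3% and 42.5% of all tested genes, and 2 members lay below every WT mouse in each.

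The 2 low members, Mx1 and Gbp5, were not called. Mx1, an antiviral GTPase, had 7.35, 6.52 and 3.86 scaled FPKM in WT and 3.02, 2.06 and 3.64 in double mutant mice. Gbp5 had 0.919, 2.19 and 2.69 against 0.370, 0.0624 and 0.719. Stat2, a transcription factor of type I interferon signalling, had 13.8, 10.6 and 18.7 scaled FPKM in WT and 15.6, 20.9 and 14.5 in double mutant mice, and the groups overlapped. With 1 mouse left out 5 to 17 members were called higher, fewest without WT mouse 1, and 10 without double mutant mouse 3. Irf7, Isg15, Oas3, Ddx58 and Usp18 were stable calls.

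The ISRE was searched on both strands as GAAA, any 2 bases and GAAA, overlapping matches included. It was found within 250 bases before the RefSeq start of 11 of the 20 interferon list members with a promoter in the table (55.0%), against 3.04% of 27025 promoters in all. Among genes called higher 5.94% held it, and 5.17% once all listed genes were set aside, beside 2.77% of all tested genes. The promoters of 3 members that rose are shown because they display the element, once or repeated, with its fixed letters in capitals (GRCm38.p6, 5′ to 3′ on the strand of the gene). They lie at chr4:156200865-156200906 (minus strand) for Isg15, chr19:34583363-34583426 (plus strand) for Ifit3 and chr12:26456553-26456582 (minus strand) for Rsad2.
Isg15: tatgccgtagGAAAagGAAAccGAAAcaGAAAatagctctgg
Ifit3: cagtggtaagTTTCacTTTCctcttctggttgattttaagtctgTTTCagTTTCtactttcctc
Rsad2: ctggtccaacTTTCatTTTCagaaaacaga
Isg15 held 3 overlapping matches, Ifit3 held 2 and Rsad2 held 1. Ifit3, an RNA-binding antiviral protein, had 1.17, 4.52 and 3.47 scaled FPKM in WT and 13.6, 13.0 and 11.5 in double mutant mice, and Rsad2 (viperin) had 0.552, 0.797 and 1.38 against 4.91, 6.98 and 8.0. A match describes the letters in the window only.

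Antigen presentation by MHC class II, which displays peptides to CD4 T cells, was higher in the double mutant mice with 1 exception in mouse 3. Of its 10 tested genes 10, 10 and 9 lay above every WT mouse in mice 1, 2 and 3, beside 40.5%, 35.3% and 42.5% of all tested genes, and 5 were called. The exception, H2-Eb1, had 8.05, 30.7 and 19.9 scaled FPKM in WT and 87.1, 108 and 4.62 in double mutant mice. Cd74, the invariant chain, had 50.4, 80.4 and 63.0 scaled FPKM in WT and 570, 368 and 239 in double mutant mice. H2-Aa had 39.2, 52.5 and 39.1 against 408, 187 and 179, with a log2 fold change (SE) of 2.44 (0.617) and a limma adjusted p = 0.0295. The calls varied with the mice included. Without double mutant mouse 2, 5 members were called. Without WT mouse 1, WT mouse 3 or double mutant mouse 1, 0 members were called, 1 without WT mouse 2 and 3 without double mutant mouse 3.

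Markers of immune cells were read as lists. Macrophage markers led, with 9 of 15 called higher, a median log2 fold change of 1.62 and summed values of 112 to 234 scaled FPKM in WT and 384 to 736 in double mutant mice. Trem2, a lipid receptor of tissue macrophages, had 0.670, 0.695 and 0.656 scaled FPKM in WT and 9.61, 5.05 and 8.52 in double mutant mice. C1qa, a complement component that macrophages make, had 10.5, 23.4 and 16.4 against 71.1, 56.3 and 61.0. Some markers went the other way without being called. Cd163, a scavenger receptor, had 1.84, 6.33 and 4.62 against 2.96, 2.56 and 0.541. Mertk had 19.8, 17.9 and 17.2 against 13.9, 17.9 and 5.25. In mouse 3, 3 of the 15 lay below every WT mouse, a smaller share than the 38.3% of all tested genes. Leaving out 1 mouse gave 3 to 10 calls, and Cd14, Ms4a7 and Trem2 were stable. Of 9 dendritic cell markers 3 rose, 2 of them stable calls, among them Itgax (CD11c), at 0.326, 0.168 and 0.229 against 4.34, 1.95 and 4.19.

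Lymphocyte and granulocyte markers moved less. Of 13 T cell markers 4 rose (Cd8a, Cd8b1, Zap70 and Thy1). All 13 lay above every WT mouse in double mutant mice 1 and 2 and 10 in mouse 3, at low levels. Of all tested genes 40.5%, 35.3% and 42.5% did so in mice 1, 2 and 3. Cd8a had 0.163, 0.163 and 0.437 scaled FPKM in WT and 2.34, 1.52 and 1.61 in double mutant mice. Thy1, which fibroblasts and neurons express too, had 13.0, 17.7 and 14.7 against 52.0, 27.1 and 130. With WT mouse 1, 2 or 3 or double mutant mouse 1 left out, 0 T cell markers were called. Of 10 neutrophil markers only Csf3r was called, a share near the 8.52% of all tested genes called higher. Leaving out double mutant mouse 2 gave 6 calls. Of 9 mast cell markers 0 were called. Of 9 B and plasma cell markers 0 rose, and Derl3 fell, a gene of protein degradation at the endoplasmic reticulum that secretory cells in general use. The part of immune cell content in the cytokine, interferon and MHC class II results was not tested.

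Cell division genes rose together in every double mutant mouse. Of 32 tested mitosis genes 26 rose and 0 fell. Members above every WT mouse numbered 32, 31 and 32 in mice 1, 2 and 3, beside 40.5%, 35.3% and 42.5% of all tested genes. The median log2 fold change was 1.49, made of median differences of 1.08, 0.83 and 2.36 in the 3 mice, so mouse 3 had the highest level. Mki67, the gene of the proliferation antigen Ki67, had 0.477, 0.220 and 0.403 scaled FPKM in WT and 3.06, 2.93 and 8.42 in double mutant mice. Cdc20, which activates the anaphase-promoting complex, had 0.617, 0.348 and 0.320 against 4.50, 4.47 and 21.2 (log2 change 2.62, SE 0.464, limma adjusted p = 0.00909). Prc1, which bundles the microtubules of the spindle midzone, had 0.749, 0.425 and 0.762 against 4.51, 4.21 and 10.4.

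Calls in this list numbered 11 to 30 with 1 mouse left out, fewest without WT mouse 1 or 3, and 26 without double mutant mouse 3. Of these calls 10 were stable, among them Mki67, Aurkb, Birc5, Cdc20, Kif11, Tpx2 and Prc1. Top2a was not called, at 2.31, 2.21 and 2.80 against 5.28, 4.95 and 42.4, a spread set by mouse 3. DNA replication genes rose less, with 12 of 30 called higher, 0 lower and a median log2 fold change of 0.61. Mcm6, a subunit of the replicative helicase, had 2.55, 0.869 and 1.46 scaled FPKM in WT and 6.75, 4.79 and 10.3 in double mutant mice. Chaf1b, which deposits histones behind the fork, had 2.15, 1.19 and 1.24 against 4.50, 5.18 and 6.36. Replication calls numbered 5 to 16 with 1 mouse left out, and 5 were stable.

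Genes around p53 and nucleotide supply were mixed. Of 20 pyrimidine synthesis genes 2 rose, Umps and Uck2, a share close to the 8.52% of all tested genes, and the list median was 0.07. With FPKM as deposited 6 rose. Umps, which completes the de novo synthesis of UMP, had 1.64, 1.35 and 1.6 scaled FPKM in WT and 3.45, 2.58 and 4.62 in double mutant mice (log2 change 0.83, SE 0.194, limma adjusted p = 0.0233). Rrm2, a ribonucleotide reductase subunit, had 4.73, 2.51 and 4.37 against 10.3, 5.73 and 33.3, without overlap and with an adjusted p = 0.0598 (limma). Rrm1 and Tyms had an adjusted p = 0.134 and an adjusted p = 0.18 (limma). Without any 1 WT mouse 0 pyrimidine genes were called.

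Of 22 p53 target genes 3 rose and 2 fell, shares close to the 8.52% and 5.51% of all tested genes, and with FPKM as deposited 8 rose and 0 fell. Pmaip1 and Plk2 were the 2 stable calls. Pmaip1 (Noxa, a pro-apoptotic BH3 protein) had 0.402, 0.279 and 0.317 scaled FPKM in WT and 8.62, 2.18 and 5.26 in double mutant mice, and Plk2 and Ckap2 rose as well. Ccng1 had 55.0, 68.3 and 62.5 against 37.4, 44.0 and 26.3, and Eda2r fell from a low level. Cdkn1a (p21), the best known target, had 7.90, 4.13 and 4.69 against 11.1, 8.25 and 29.5, and Mdm2 had 18.5, 18.5 and 18.2 against 13.7, 15.1 and 20.1. Neither was called. Of 15 genes in the beta-catenin target list, which includes Ctnnb1 itself, 0 rose and 2 fell, beside 8.52% and 5.51% of all tested genes. The falls were Nkd1 and Apcdd1, both feedback inhibitors of Wnt signalling, and neither was a stable call. Nkd1 had 16.5, 14.5 and 18.9 scaled FPKM in WT and 2.5, 3.41 and 0.820 in double mutant mice. Ctnnb1, beta-catenin itself, had 133, 135 and 157 against 206, 170 and 234 (log2 change 0.51, SE 0.188, limma adjusted p = 0.0933).

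Matrix genes of fibroblasts were the main stromal gain. Of 34 tested members 18 rose and 0 fell, with a median log2 fold change of 1.49. Members above every WT mouse numbered 33, 30 and 27 in mice 1, 2 and 3, beside 40.5%, 35.3% and 42.5% of all tested genes. Col1a1, a chain of type I collagen, had 5.13, 5.54 and 7.56 scaled FPKM in WT and 50.4, 14.5 and 89.4 in double mutant mice. Thbs1, thrombospondin 1, had 4.36, 6.22 and 8.23 against 71.6, 36.2 and 42.8 (log2 change 2.79, SE 0.425, limma adjusted p = 0.00603). Fn1, fibronectin, had 12.3, 17.8 and 17.5 against 52.8, 43.2 and 121. Mouse 2 had the lowest median difference, 0.71 against 1.73 in mouse 1 and 1.79 in mouse 3.

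Not every matrix gene was higher in mouse 3. Dcn, decorin, which was singled out after its values were seen, had 234, 441 and 282 scaled FPKM in WT and 698, 388 and 74.3 in double mutant mice. Lum, lumican, chosen in the same way, had 11.6, 16.1 and 10.1 against 107, 29.96 and 8.97. These abundant proteoglycans of normal stroma were thus below WT in mouse 3 and not in mouse 1, and 5 of 34 members lay below every WT mouse in mouse 3 and 0 in the others, beside 38.3% of all tested genes in mouse 3. Matrix calls numbered 3 without any 1 WT mouse, 5 without double mutant mouse 1 and 12 without mouse 3. Bgn, Fn1 and Thbs1 were stable calls.

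Enzymes that cut matrix and their inhibitors rose with it, 10 of 21 tested and 0 lower, with a median log2 fold change of 1.17. Timp1, an inhibitor of metalloproteinases, had 5.32, 4.54 and 6.66 scaled FPKM in WT and 71.3, 44.5 and 64.1 in double mutant mice, a log2 fold change of 3.21 with the smallest adjusted p of any gene (SE 0.231, adjusted p = 0.000476, limma, shared with Abcg1). Plaur, the urokinase receptor, had 0.823, 0.244 and 0.822 against 7.30, 10.6 and 42.2, and Mmp2 had 7.46, 10.9 and 10.2 against 72.1, 25 and 148. Timp1 and Plaur were stable calls, and 2 to 13 members were called with 1 mouse left out. Endothelial markers differed between the mice. Only Egfl7 was called of 14, a share near the 8.52% of all tested genes called higher (5 called without double mutant mouse 2). The list median was 0.47. Members above every WT mouse numbered 11, 4 and 9 in mice 1, 2 and 3, beside 40.5%, 35.3% and 42.5% of all tested genes. Pecam1 had 5.89, 11.3 and 8.23 against 16.1, 9.33 and 12.1.

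**Figure D3:**
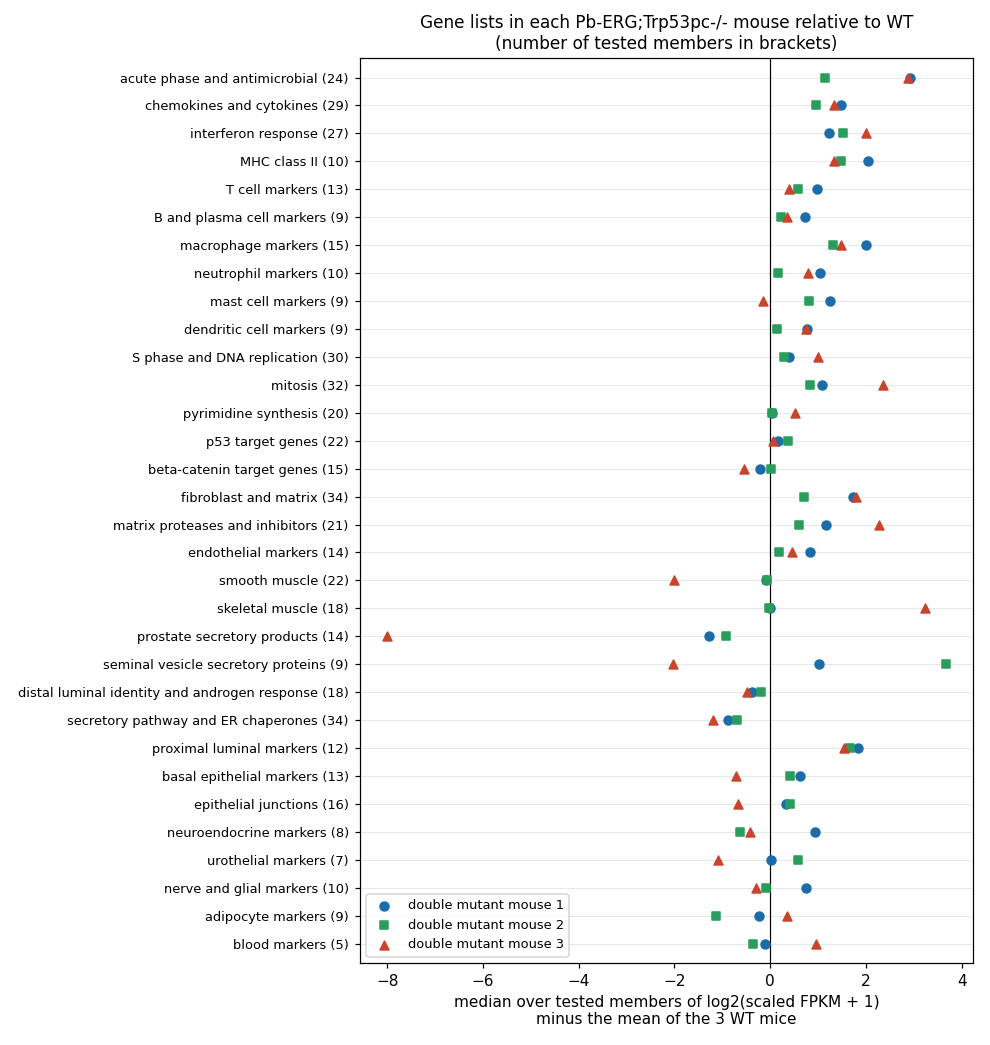
Median over the tested members of each gene list of log2(scaled FPKM + 1) minus the mean of the 3 WT mice, with 1 point for each double mutant mouse. The mitosis, interferon, MHC class II and matrix lists lie right of 0 and the secretory pathway list left of 0 in each mouse, while smooth muscle (-2.0) and skeletal muscle (3.23) leave 0 in mouse 3 and prostate secretory products reach -8.0 there.

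The gland's secretory products were the largest loss in level. Summed over the listed products, they made 101156, 194415 and 140108 scaled FPKM in WT and 35174, 66488 and 887 in double mutant mice 1, 2 and 3. The sums were 60729, 64982 and 42142 in the Pb-ERG mice and 63967, 129819 and 446535 in the Trp53pc-/- mice. Sums below those of WT were thus not particular to the double mutant mice. Sbp, spermine binding protein of the ventral lobe, had 12178, 61511 and 39856 against 0.928, 1115 and 0.779, with a log2 fold change (SE) of -10.95 (2.67) and a limma adjusted p = 0.0265. Its paralog Sbpl also fell. Pbsn, probasin, whose promoter drives both transgenes, had 18702, 23407 and 11534 scaled FPKM in WT and 5497, 5484 and 41.0 in double mutant mice (adjusted p = 0.133, limma). Tgm4, the prostate transglutaminase, had 28139, 22315 and 25251 against 7955, 5580 and 38.7 (adjusted p = 0.142, limma). Both lay below every WT mouse in each double mutant mouse, but neither was called, with or without mouse 3.

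The list as a whole had 2 falls, 1 rise and 11 members not called among 14 tested. Members below every WT mouse numbered 8, 8 and 13 in mice 1, 2 and 3, beside 32.2%, 32.6% and 38.3% of all tested genes. Its median log2 fold change was -3.43 and became -1.06 without mouse 3. Ceacam10 was the exception and rose, from 1.35, 3.32 and 13.9 to 46.1, 54.0 and 53.7 scaled FPKM. Without WT mouse 1, 2 or 3, double mutant mouse 1 or mouse 3, 0 falls were called. Proteins of the seminal vesicle, a neighbouring gland, varied widely within both groups, with sums of 16520, 622 and 27982 scaled FPKM in WT and 3212, 43067 and 1.44 in double mutant mice, and 0 of 9 were called. The part of the dissection, of lobes or of the neighbouring gland, in these values was not tested.

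The machinery that folds and exports secreted proteins fell in all 3 mice more evenly than the products did. Of 34 tested genes of the endoplasmic reticulum (ER) and early secretory pathway 17 fell and 0 rose, with a median log2 fold change of -0.88. Members below every WT mouse numbered 33, 31 and 30 in mice 1, 2 and 3, beside 32.2%, 32.6% and 38.3% of all tested genes. Hspa5 (BiP), the main ER chaperone, had 1398, 2031 and 2867 scaled FPKM in WT and 536, 569 and 538 in double mutant mice, 3.83-fold lower by the means (adjusted p = 0.0423, limma). Creld2, another ER protein induced by unfolded proteins, had 235, 442 and 645 against 60.2, 82.5 and 49.1, 6.89-fold lower. Spcs3, a subunit of signal peptidase, had 140, 160 and 145 against 55.7, 65.5 and 30.2 (log2 change -1.6, SE 0.262, limma adjusted p = 0.00726). Sec23b, a coat protein of vesicles that leave the ER, had 78.0, 61.3 and 91.4 against 36.1, 36.8 and 27.3.

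The fall held under every scaling tried, with 10 members called lower and a median of -0.42 even with FPKM as deposited. Spcs3 and Sec23b were stable calls. Leaving out 1 mouse gave 2 falls without WT mouse 3, 3 without WT mouse 2, 7 without WT mouse 1, double mutant mouse 1 or mouse 3, and 17 without mouse 2. Xbp1, a transcription factor of the unfolded protein response, did not follow, at 129, 120 and 125 scaled FPKM in WT and 131, 123 and 101 in double mutant mice. Its upstream sensor Ern1 had 35.1, 29.9 and 37.4 against 25, 34.8 and 4.19.

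The ER stress response element (ERSE) was searched on both strands as CCAAT, any 9 bases and CCACG. It was found within 250 bases before the RefSeq start of 7 of the 27 secretory pathway members with a promoter in the table (25.9%), against 0.122% of 27025 promoters in all. Of genes called lower 9 of 687 held it (1.31%), of genes called higher 1 of 1094, beside 18 of 12132 tested genes (0.148%). The 9 include Hspa5, Pdia6, Calr, Canx, Creld2 and Dnajc3, which are list members already counted among the 7. The element is known to bind NF-Y at CCAAT and ATF6 at CCACG. Again a match is no evidence of binding. Promoters of 5 members that fell are shown because they carry the element, with those letters in capitals (GRCm38.p6, 5′ to 3′ on the strand of the gene). They lie at chr2:34772015-34772053 (plus) for Hspa5, chr15:88819510-88819548 (plus) for Creld2, chr12:17266481-17266519 (plus) for Pdia6, chr14:118937817-118937855 (plus) for Dnajc3 and chr8:84847065-84847103 (minus) for Calr.
Hspa5: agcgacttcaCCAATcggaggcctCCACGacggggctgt
Creld2: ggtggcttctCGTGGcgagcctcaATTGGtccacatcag
Pdia6: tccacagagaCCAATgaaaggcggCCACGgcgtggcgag
Dnajc3: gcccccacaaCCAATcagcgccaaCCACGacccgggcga
Calr: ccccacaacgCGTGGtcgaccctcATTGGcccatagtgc
Creld2 and Calr hold the element in the reverse orientation. Pdia6, a disulfide isomerase, had 1883, 1499 and 2063 scaled FPKM in WT and 603, 788 and 269 in double mutant mice. Dnajc3, a co-chaperone, had 216, 268 and 357 against 82.7, 92.5 and 31.9, and the calcium-binding chaperone Calr had 1205, 1151 and 1713 against 562, 729 and 559. All 5 were lower in each double mutant mouse than in any WT mouse.

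**Figure D4:**
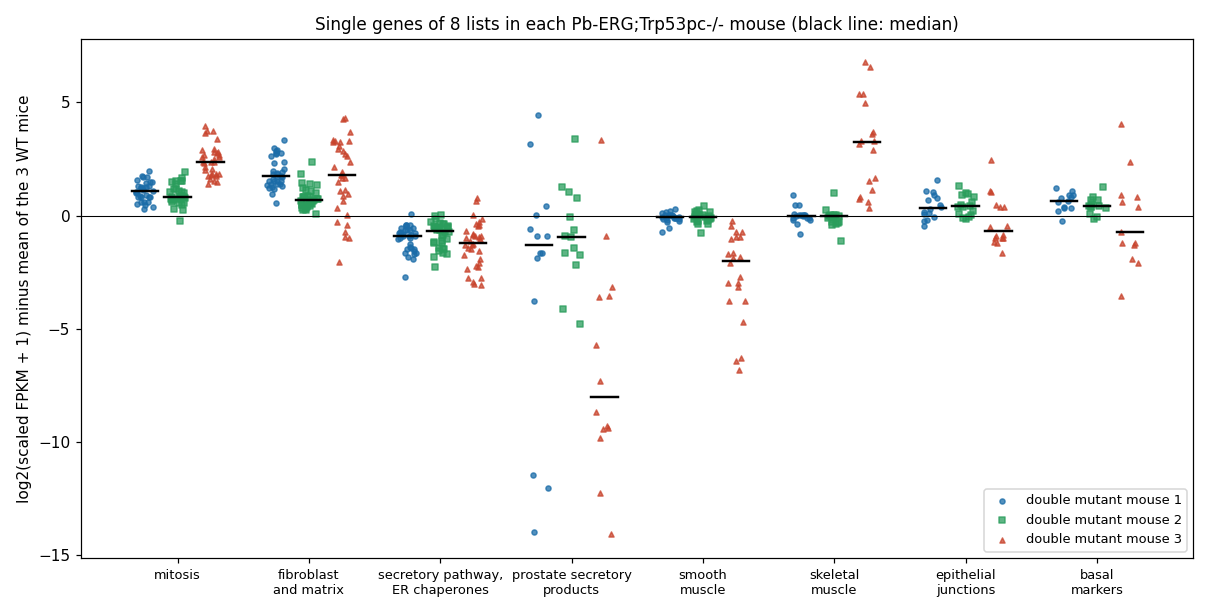
Each point is a gene of 1 of 8 lists in 1 double mutant mouse, as log2(scaled FPKM + 1) minus the mean of the 3 WT mice, with black lines at the medians. Most mitosis genes lie above 0 and most secretory pathway genes below 0 in each of the 3 mice, whereas smooth muscle, skeletal muscle, junction and basal genes leave the pattern of mice 1 and 2 in mouse 3.

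Epithelial genes moved in both directions. Krt8, a keratin of luminal cells, rose from 90.6, 68.9 and 79.2 scaled FPKM in WT to 197, 203 and 181 in double mutant mice (log2 change 1.28, SE 0.202, limma adjusted p = 0.0066) and was a stable call. Of 18 tested genes of distal luminal identity and androgen response Krt8 was the only rise, and Foxa1, Tmprss2 and Abcc4 fell. Tmprss2, an androgen-induced protease whose human promoter forms the ERG fusion, had 183, 111 and 120 scaled FPKM in WT and 47.5, 47.8 and 15.9 in double mutant mice. The list median of -0.30 was 0.16 with FPKM as deposited, so the list has no direction that holds under every scaling.

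Markers of proximal luminal cells, a population near the urethra, were higher, with 6 of 12 called higher and 0 lower. Ly6a (Sca-1) had 87.0, 82.9 and 82.5 scaled FPKM in WT and 937, 991 and 2971 in double mutant mice. Clu, the extracellular chaperone clusterin, had 286, 55.9 and 267 against 6764, 5664 and 1102 (log2 change 4.41, SE 0.8, limma adjusted p = 0.00977). Cd44, a hyaluronan receptor, also rose. Psca, another marker of these cells, was at 20.7, 7.98 and 21.6 against 52.9, 27.2 and 1.89, and thus differed in sign between mice. Between 4 and 6 members were called with 1 mouse left out, and Ly6a, Wfdc2 and Clu were stable calls.

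Basal and junction genes differed between the mice. Of 13 basal markers only Krt17 was called, a share near the 8.52% of all tested genes called higher. In mouse 3, 7 of 13 lay below every WT mouse, against 1 and 0 in mice 1 and 2. Of all tested genes 38.3%, 32.2% and 32.6% did so in mice 3, 1 and 2. Krt5 had 40.3, 16.4 and 20.8 scaled FPKM in WT and 37.8, 31.8 and 1.15 in double mutant mice. Of 16 junction genes Cdh1, Cldn3, Cldn4 and F11r rose, and 1 to 3 were called with 1 mouse left out, Cldn4 in every such fit. Cdh1, E-cadherin, had 71.0, 55.8 and 74.3 against 141, 128 and 143, and Cldn4 had 130, 98.6 and 103 against 329, 277 and 224. Still, 10 junction genes lay below every WT mouse in mouse 3, against 2 and 0 in mice 1 and 2, beside the same shares of all tested genes. Epcam had 236, 236 and 275 against 209, 238 and 126.

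Smooth muscle genes were low in 1 double mutant mouse of 3. Of 22 smooth muscle genes 0 were called. In mouse 3 all 22 lay below every WT mouse with a median difference of -2.0. In mice 1 and 2 only 4 each did, with median differences of -0.08 and -0.06. Of all tested genes 32.2%, 32.6% and 38.3% did so in mice 1, 2 and 3. Acta2, smooth muscle actin, had 512, 676 and 554 scaled FPKM in WT and 532, 579 and 21.4 in double mutant mice, and Myh11, smooth muscle myosin, had 134, 252 and 152 against 153, 145 and 0.523. Without mouse 3 the list median went from -0.91 to -0.09. The opposite held for 18 genes of striated muscle. All 18 were above every WT mouse in mouse 3, with a median difference of 3.23, against 5 and 4 members in mice 1 and 2. Among all tested genes 40.5%, 35.3% and 42.5% lay above in mice 1, 2 and 3. Mylpf, a fast skeletal muscle light chain, had 1.22, 1.19 and 0.749 scaled FPKM in WT and 1.79, 1.44 and 83.3 in double mutant mice. The part of striated muscle in the other values of mouse 3 was not tested.

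Markers of other tissues that a dissection can hold were not called, 0 of 7 urothelial, 0 of 10 nerve and glial, 0 of 9 adipocyte and 0 of 5 blood markers. Of 8 neuroendocrine markers Calca was the only call. Single mice did differ from WT. All 10 nerve and glial markers lay above every WT mouse in mouse 1, and 7 lay below in mouse 3. Of the adipocyte markers 8 lay below every WT mouse in mouse 2. Of the neuroendocrine markers 7 lay above in mouse 1 and 6 below in mouse 2. Of all tested genes 40.5% lay above in mouse 1, and 32.6% and 38.3% below in mice 2 and 3.

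The same mouse carried the largest rise of an imprinted locus. H19, a long noncoding RNA (chromosome 7, 142575529 to 142578143, minus strand), had 0.0744, 0.298 and 0.850 scaled FPKM in WT and 20.4, 41.2 and 1236 in double mutant mice (log2 change 6.24, SE 1.21, limma adjusted p = 0.0119). It rose in all 3 mice and was a stable call. Its neighbour Igf2 (142650766 to 142666816), a fetal growth factor, had 0.964, 2.43 and 3.25 against 9.90, 21.6 and 960. Mir675, Gm27786 and Gm27483 lie inside H19. The library kit does not mark strand, so their fragments cannot be told apart from those of H19. H19 was also at 185, 46.2 and 70.6 scaled FPKM in the Pb-ERG mice and at 2.53, 5.54 and 2.17 in the Trp53pc-/- mice.

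The other large falls were in single genes of several kinds. Itln1, a lectin that binds microbial glycans, had 434, 313 and 12.5 scaled FPKM in WT and 0.158, 0.0772 and 0.211 in double mutant mice. Ren1, renin, had 38.5, 97.4 and 454 against 0.136, 5.40 and 0.0838. Bglap3, an osteocalcin-related gene, had 137, 118 and 99.0 against 1.93, 1.43 and 0.117, and Tmem45b, a membrane protein, had 26.9, 81.9 and 68.5 against 4.49, 3.78 and 0.866. Pnliprp1, Gsdma, Vnn1, Crabp1, Gm9765 and 9530003J23Rik complete the 12 largest falls with Sbp and Sbpl. The 12 were taken from called genes without overlap between the groups. That each was lower in each double mutant mouse than in any WT mouse is therefore no separate result. Itln1, Bglap3 and Tmem45b were stable calls.

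Only 19 genes passed an adjusted p under 0.001, all higher, with 0 lower (2516 lower at an unadjusted p under 0.05, limma). Besides Reg3b, Reg3g, Wfdc18, Saa3, Lcn2, Timp1 and Cxcl16 they included Otos, Abcg1, Qsox1, Acox2, Lgals3, Lgals9, Pglyrp1 and Anxa3. Abcg1, a cholesterol exporter, had 0.660, 0.660 and 0.587 scaled FPKM in WT and 8.43, 8.30 and 11.1 in double mutant mice. Lgals3, galectin 3, had 3.61, 4.86 and 2.92 against 55.9, 47.4 and 88.1. Pglyrp1, which binds bacterial peptidoglycan, had 8.18, 4.08 and 6.09 against 172, 76.4 and 113. A small p favours genes whose spread within groups is small beside the difference. How even the 3 double mutant mice were in these genes is therefore no separate result.

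The single genotypes were read only to place these results, and they share the WT mice with the comparison above. Pb-ERG mice differed from WT in 207 higher (1.17%) and 76 lower (0.431%) genes, and Trp53pc-/- mice in 0 of either kind (751 higher and 588 lower at an unadjusted p under 0.05, limma). The 1502 genes higher in double mutant mice had a median log2 fold change of 1.12 there, 0.63 in Pb-ERG mice and 0.07 in Trp53pc-/- mice, and for the 971 lower genes these medians were -0.81, -0.46 and -0.17. The genes were chosen by their difference between double mutant and WT mice. That choice by itself enlarges the double mutant medians, so the medians do not rank the genotypes. Compared directly, double mutant and Pb-ERG mice differed in 5 genes, with Acox2, Aqp3 and Ociad2 higher (0.017%) and Ly6k and Ttc39aos1 lower (0.0113%), beside 1226 and 967 at an unadjusted p under 0.05 (limma). Acox2, a peroxisomal oxidase of bile acid synthesis, had 0.0574, 0.0575 and 0.0149 scaled FPKM in WT, 0.160, 0.294 and 0.142 in Pb-ERG and 1.12, 0.863 and 1.05 in double mutant mice. Aqp3, a water and glycerol channel, had 0.0575, 0.138 and 0.0870 in Pb-ERG and 0.735, 0.574 and 0.756 in double mutant mice. Double mutant and Trp53pc-/- mice differed in 1515 higher (8.6%) and 915 lower (5.19%) genes.

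By list, no member of the acute phase, chemokine, interferon, MHC class II, mitosis, matrix or secretory pathway lists differed between double mutant and Pb-ERG mice. The median log2 fold changes from WT in Pb-ERG mice were 2.06, 1.13, 0.82, 1.23, 0.70, 0.69 and -0.43 for these lists, against 2.12, 1.29, 1.68, 1.41, 1.49, 1.49 and -0.88 in double mutant mice. Acute phase genes summed to 1627, 4665 and 6029 scaled FPKM in the Pb-ERG mice and to 3642, 2266 and 4190 in the double mutant mice, so the groups overlapped. Smooth muscle was at -0.83 and -0.91, with different mice low. Its genes summed to 3387, 1021 and 1571 scaled FPKM in the Pb-ERG mice and to 3085, 3262 and 531 in the double mutant mice. The Pb-ERG mice also differed among themselves. Mouse 1 lay 0.749 and 0.698 (root mean square, log2) from mice 2 and 3, which differed by 0.396. Its interferon genes summed to 98.1 scaled FPKM, against 294 and 306 in mice 2 and 3 and 95.6 to 130 in WT. A test that misses its threshold does not show that these groups are alike.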

How the data were processed

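RNA from flash-frozen prostate tissue was sequenced from both fragment ends after an unstranded TruSeq preparation. The authors aligned the reads to mouse GRCm38/mm10 with STAR (2.5.2b in the submitters' processing notes; the paper's methods name another release) and deposited FPKM per gene and library, computed with RSeQC. Genotypes with a point-mutant Trp53 allele are not analysed here.

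FPKM values as deposited are divided by exon length and library total. Fragments were recovered from them as whole numbers for 100% of values (tolerance 0.001). Libraries were rescaled by median-of-ratios factors from genes with at least 10 fragments in every library (factors 0.844 to 0.900 in WT, 1.12 to 1.30 in double mutant mice). Genes with at least 0.42 CPM from recovered fragments in 3 libraries were kept. The log2 of scaled FPKM + 1 was fitted with limma 3.58.1 (R 4.3.3, trend) on 12 libraries with 4 group means, with Benjamini-Hochberg adjustment over 17623 genes. Other steps ran in Python 3.11.15.

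The members and gene lists were chosen with earlier results of these data known. Genes named were Erg, Trp53, the 12 largest rises and falls among called genes without overlap and with a mean of at least 5 in the higher group, the first 2 members and the 4 smallest p of each list, Umps, Rrm1, Rrm2, Tyms and Ctnnb1, and the 3 called genes in each direction with the widest spread among double mutant mice. Other genes named were chosen after their values were seen. Floors for folds were 3 fragments per library and cover counting error only. Of 41042 listed genes 36918 matched a current symbol and 1047 an older one. Promoters are RefSeq, GRCm38.p6, 1 per gene. The methods describe biological triplicates. On simulated data with 200 of 17623 genes changed, the double mutant against WT test recovered 56.5%, 86% and 97.5% at log2 changes of 1, 2 and 4. Recovery in the real libraries, where double mutant mice differed more among themselves than WT mice did, was not tested. Same-numbered WT and double mutant libraries did not deviate together (correlations 0.113, -0.125 and -0.0267), so numbers were not taken to pair these groups. WT and Trp53pc-/- libraries of the same number correlated weakly (0.166, 0.215 and 0.230), and the largest value was 0.378, for mouse 1 of Pb-ERG and Trp53pc-/-. No label pairs any of these libraries. The Trp53pc-/- against WT contrast was also fitted with a replicate block, an alternative chosen after seeing the data.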

Additional observations from a re-analysis of the deposited data

How the results depend on the processing

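The counts of 1502 higher and 971 lower genes became 3880 and 247 with FPKM as deposited, 967 and 540 with the 6 libraries compared alone, 19 and 0 at an adjusted p under 0.001 and 878 and 331 with an absolute log2 fold change of at least 1. Leaving out 1 mouse gave 424 to 2002 higher and 193 to 1078 lower genes. Replicate numbers were not taken to pair WT with double mutant mice, and a replicate block gave 1347 and 929. For Trp53pc-/- against WT, whose same-numbered libraries correlated weakly, limma with the block also called 0 genes (689 higher and 585 lower at an unadjusted p under 0.05). The other alternatives, which were TMM scaling, scaling without the 17 dominant genes, leaving the low values unfiltered, a minimum of 10 fragments in each library, a pseudocount of 0.1, array weights and voom on recovered fragments, stayed within 1.5 times of both counts. The median log2 fold change of all genes was 0.04, 0.35 with FPKM as deposited and 0.11 without dominant genes. The list medians of beta-catenin targets, distal luminal, blood and neuroendocrine genes changed sign with FPKM as deposited, those of blood and neuroendocrine genes also without dominant genes, and those of beta-catenin target, basal, junction, skeletal muscle, urothelial, nerve, adipocyte, blood and neuroendocrine genes when some mouse was left out. Of the genes named, the log2 fold change turned positive for Dcn (0.29), Epcam (0.037), Mdm2 (0.26), Psca (0.41) and Xbp1 (0.38) with FPKM as deposited, and for Psca (0.10) and Xbp1 (0.032) without dominant genes. With 1 mouse left out it changed sign for Dcn (-0.85 to 0.76), Krt5 (-1.57 to 0.51), Ly6k (-0.37 to 0.56), Psca (-0.86 to 1.25), Saa1 (-0.43 to 2.15) and Xbp1 (-0.16 to 0.030). None of these 8 genes was called against WT. The causes were not tested.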

Other observations

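Genes of amino acid breakdown and synthesis, outside the lists above and chosen after their values were seen, were among the stable falls. Bcat2, which starts the breakdown of branched-chain amino acids in mitochondria, had 64.5, 96.3 and 92.6 scaled FPKM in WT and 23.9, 26.4 and 9.17 in double mutant mice. Dbt, Pcca, Ivd and Mccc1, later enzymes of the same breakdown, fell as well. Gpt2, a mitochondrial alanine transaminase, had 152, 113 and 111 against 20.6, 24.5 and 26.9, and Phgdh, the first enzyme of serine synthesis, had 71.9, 75.9 and 81.8 against 24.7, 30.4 and 27.7. For each of these 3 the groups did not overlap. Ufm1, a ubiquitin-like protein that acts at the ER, and Ufsp2, which processes it, were stable falls too.

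Stable rises outside the lists, chosen in the same way, included genes of inflammatory cell death. Casp4 (caspase 11), which senses bacterial lipopolysaccharide, had 1.75, 1.26 and 0.584 scaled FPKM in WT and 22.9, 31.0 and 26.6 in double mutant mice. Mlkl, the effector of necroptosis, had 0.680, 0.680 and 1.04 against 5.16, 5.72 and 15.2. Spp1, osteopontin, had 0.129, 0.241 and 0.589 against 72.1, 8.29 and 146, the widest spread of the 3. No test beyond that of the single genes was made.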
